A study of Mus musculus with 8 samples.

Results

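AP-1 is a family of transcription factors that bind DNA as pairs held together by a leucine zipper. Fos proteins need a Jun protein as partner, Jun proteins can also pair among themselves, Batf pairs with Jun proteins and binds beside Irf4 in T cells, and Atf3 and Jdp2 are known mostly as repressors at the same kind of site. Several genes of this family are induced within minutes of T cell receptor or stress signals. In T cells the family takes part in activation and in the programme of effector and tissue Tregs. The regions described here are those assigned to 10 genes of the family: Fos, Fosb, Fosl1, Fosl2, Jun, Junb, Jund, Atf3, Jdp2 and Batf. Each distinct region that the deposited count table lists under one of these symbols was taken once. That gave 55 of the 46512 regions on the autosomes and sex chromosomes, and 52 of the 55 passed the low-count filter, which kept 45709 in all. Fosl2 had 8 regions, Jdp2 had 9, Jun and Junb had 6 each, Fos, Fosb and Batf had 5 each, Atf3 and Fosl1 had 4 each, and Jund had 3. Assignment is by the table, so a region can lie far from its gene: 20 of the 55 overlapped the gene and 18 were also listed under another gene.

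The assay was ATAC-seq: a transposase inserts sequencing adapters where chromatin is open, so read counts over a region measure its accessibility. The series asks how regulatory T cells (Tregs) of visceral adipose tissue (VAT) differ between the sexes. All mice were C57BL/6 with a red fluorescent protein (RFP) reporter of Foxp3, the factor that defines Tregs, and their age is not given in the labels. The 8 libraries form 4 groups of 2: RFP-positive Tregs from VAT of males, RFP-positive Tregs from VAT of females, RFP-negative CD4 T cells from VAT of males, and RFP-positive Tregs from spleen of males. Each library pools cells of 3 mice, so p-values measure the spread between pools. The design text also names female spleen, but both spleen libraries are labelled male.

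Libraries held 5722254 to 15798875 counts in the regions used. Values are CPM, a region's count relative to the library total, scaled by trimmed mean of M values (TMM), and ± is the SD of 2 libraries. The RFP-positive label was checked on 47 regions of Foxp3, Il2ra, Ctla4 and Ikzf2: 16 were higher and 1 lower in male VAT Tregs than in male VAT CD4 cells, beside 5.18% and 2.51% of all regions. Male VAT Treg libraries summed to 473 and 340.5 CPM over them, those of female VAT Tregs to 429.9 and 451, those of VAT CD4 cells to 294 and 342 and those of spleen Tregs to 368 and 379, so male VAT Treg replicate 2 lay at the level of CD4 replicate 2. Against female VAT Tregs, 1 was higher and 3 lower in male VAT Tregs. Male VAT Treg replicate 1 stood apart: regions under 1000 bp took 5.55% of its counts, while their share was 4.22% in replicate 2 and ran between 3.60% and 4.37% in the other groups. Summed CPM of B cell markers was 91.1 to 126 in male VAT Tregs, 127 to 132 in female VAT Tregs, 111 to 116 in VAT CD4 cells and 128 to 134 in spleen Tregs. Myeloid markers summed to 116 to 164, 162 to 170.2, 139 to 159.8 and 139 to 159 CPM in the same 4 groups. T cell markers summed to 80.5 to 113, 119 to 125, 98.4 to 141 and 106 to 119 CPM in them. Adipocyte markers summed to 76.6 to 81.7, 99.0 to 101, 98.8 to 99.0 and 97.3 to 110.1 CPM, so both male VAT Treg libraries lay below the other 6. CD8 and NK markers ran from 97.0 to 117 CPM over all libraries, and stromal and endothelial markers from 136 to 156 CPM. Among the regions of these lists of other cells, male VAT Tregs had 1 myeloid region lower than female VAT Tregs, 2 adipocyte regions lower than spleen Tregs, and 1 B cell region higher and 1 lower than VAT CD4 cells. T cell regions were lower at 1 against spleen Tregs and 3 against VAT CD4 cells. No listed region had a mean of 0, which the low-count filter fixes in advance for the regions it kept. Ms4a1, Lyz2, Csf1r, Adgre1, Cd8a, Ncr1, Lep and Pdgfrb carried no region. The part of other cells in the results below was not tested, and in pooled cells, fewer cells with an open site and less opening per cell cannot be told apart.

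Promoters of 5 members are printed from the RefSeq table of GRCm38.p6, the build of the files. Fosl2 and Junb are shown because theirs are the start regions called in a comparison below, and Atf3, Fos and Jun as members whose start regions were not called. Each is the 250 bases before the annotated start, read 5′ to 3′ on the strand of the gene. Capitals mark TGACG on either strand (CGTCA when on the other strand), the core of sites for ATF and CREB factors, and TGANNTCA, an 8-base AP-1 and ATF type site. Fosl2 is on the plus strand at chr5:32136222-32136471, Junb on the minus strand at chr8:84978749-84978998, Atf3 on the minus strand at chr1:191183334-191183583, Fos on the plus strand at chr12:85473640-85473889 and Jun on the minus strand at chr4:95052223-95052472.
Fosl2: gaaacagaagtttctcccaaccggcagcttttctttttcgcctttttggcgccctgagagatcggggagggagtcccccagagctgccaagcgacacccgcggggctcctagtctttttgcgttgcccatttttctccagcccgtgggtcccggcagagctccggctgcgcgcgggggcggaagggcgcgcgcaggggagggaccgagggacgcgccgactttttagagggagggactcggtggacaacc
Junb: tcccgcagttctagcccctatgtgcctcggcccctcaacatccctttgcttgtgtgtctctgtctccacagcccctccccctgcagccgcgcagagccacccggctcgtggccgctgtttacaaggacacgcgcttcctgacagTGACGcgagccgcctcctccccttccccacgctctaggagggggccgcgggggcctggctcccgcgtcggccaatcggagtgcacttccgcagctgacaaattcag
Atf3: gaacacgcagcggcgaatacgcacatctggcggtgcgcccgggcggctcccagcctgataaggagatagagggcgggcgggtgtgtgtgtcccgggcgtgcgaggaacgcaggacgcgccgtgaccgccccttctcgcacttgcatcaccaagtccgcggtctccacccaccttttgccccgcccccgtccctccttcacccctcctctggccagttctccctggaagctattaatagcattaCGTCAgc
Fos: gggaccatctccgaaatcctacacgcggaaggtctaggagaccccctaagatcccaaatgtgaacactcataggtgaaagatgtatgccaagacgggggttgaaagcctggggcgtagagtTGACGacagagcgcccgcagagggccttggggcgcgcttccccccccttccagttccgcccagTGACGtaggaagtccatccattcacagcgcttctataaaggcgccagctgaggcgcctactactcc
Jun: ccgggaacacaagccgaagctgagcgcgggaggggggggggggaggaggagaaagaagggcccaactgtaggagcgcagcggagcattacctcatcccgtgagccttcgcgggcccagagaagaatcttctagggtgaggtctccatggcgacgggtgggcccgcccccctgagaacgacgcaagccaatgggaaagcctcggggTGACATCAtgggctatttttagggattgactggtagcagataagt

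TGACG began 129 and 66 bases before the start of Fos, 106 bases before that of Junb and 7 bases before that of Atf3, and the Jun promoter held the 8-base site TGACATCA 45 bases before its start. Of the windows not printed, TGACG began 60 bases before the start of Fosb, 98 before that of Batf and 114 before 1 of the 3 starts of Jdp2, and Jund held TGANNTCA 61 bases before its start. The Fosl2 window and those of the other 2 Jdp2 starts held neither. The table had a start for 9 of the 10 members (11 starts in all, none for Fosl1). On both strands and in windows of the same length, TGACG stood in 17.8% of all 32851 promoters, TGANNTCA in 11.9% and the 7-base site TGANTCA in 6.75%. TGANTCA was in none of the 11 windows, and neither was the CArG box bound by serum response factor, which 1.47% of promoters held. These are letters in a short window and show no binding.

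Regions that hold the start of a gene were open in all 8 libraries. Per kb of region, their mean levels ran from 15.9 CPM at Jun, the founding Jun protein, through 13.8 at Fosl2, 11.4 at Jund, 8.80 at Junb, 8.21 at Fosb, 7.44 at Fos and 5.60 at Batf to 4.79 at Atf3 and 4.68 at Jdp2. The lowest and highest library overlapped between every pair of neighbours in this order. Among the 9, the Jun start had the narrowest relative range, 15.1 to 18.5 CPM per kb over the 8 libraries. The Fosl2 start had the widest, 6.93 to 21.9, with both spleen libraries lowest.

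Male VAT Tregs were set against male spleen Tregs for the effect of tissue within 1 sex. Of the 52 regions, 12 were higher in male VAT Tregs, at Fosl2 (7), Atf3 (2), Fosb, Junb and Jdp2 (1 each), which is 23.1% of them beside 4.64% of all regions (edgeR quasi-likelihood F test, Benjamini-Hochberg adjusted p under 0.05 over all 45709 regions). None was called lower, beside 2.09% of all regions; at an unadjusted p under 0.05, 6 were lower, beside 8.75%, and DESeq2 and limma called 0 lower. The median log2 fold change of the 52 was 0.39, against -0.01 over all regions. Of the 7 Fosl2 regions, 6 lie within 4608 bp, so the share and the median count that stretch several times. Those 6 and the called Jdp2 region of 260 bp passed the low-count filter only through fat libraries. Their direction, and so part of the share, was in part set by the filter. Among regions under 1000 bp, 9 of 29 members were higher beside 10.2% of all such regions, and among longer ones 3 of 23 beside 1.54%. Both libraries of male VAT Tregs lay above both of spleen at 18 regions and below at 8, beside 22.7% and 23.1% of all regions. Without male VAT Treg replicate 1, 6 regions were higher beside 1.55% of all regions and 1 was lower beside 2.15%.

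Female VAT Tregs were set against the same spleen libraries, so this comparison shares its spleen samples with the one before, and sex and tissue cannot be told apart in it. Here 8 of the 52 regions were higher, at Fosl2 (6), Atf3 and Junb (1 each), beside 1.18% of all regions. One Jdp2 region was lower, beside 0.197%. The median log2 fold change was 0.30, against -0.00 over all regions. Most of the Fosl2 regions called here lie in that same short stretch, which is again counted several times. The regions of that stretch passed the low-count filter only through fat libraries, so their direction was in part set by it. Both female libraries lay above both spleen libraries at 27 regions and below at 5, beside 20.9% and 21.0%. Regions under 1000 bp gave 5 of 29 higher beside 2.07%, and longer ones 3 of 23 beside 0.692%. Only 2 of the 52 were called higher by DESeq2's Wald test, and 3 or 4 when any single library was left out.

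Male VAT Tregs were set against female VAT Tregs for the sex difference in the series title. Of the 52 regions, 3 were higher in males, 1 at Atf3 and 2 at Jdp2, beside 2.04% of all regions. None was called lower, beside 1.21%; at an unadjusted p under 0.05, 3 were lower, beside 6.68%, and DESeq2 and limma called 0 lower. The median log2 fold change was 0.06, against 0.01 over all regions, and the groups stood apart at 12 regions higher and 6 lower, beside 20.8% and 20.5%. All 3 calls were among the 29 members under 1000 bp, where 4.68% of all regions were higher, and the 23 longer ones had 0, beside 0.572%. The called Jdp2 region of 260 bp passed the low-count filter only through male VAT Treg libraries, so its direction was in part set by it. Without male VAT Treg replicate 1, 1 region was higher beside 0.509% of all regions and 2 were lower beside 2.37%.

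Male VAT Tregs were set against CD4 T cells of the same fat for the difference between Tregs and other T cells. Of the 52 regions, 6 were higher in Tregs, at Atf3, Fosb and Jdp2 (2 each), beside 5.18% of all regions. None was called lower, beside 2.51%; at an unadjusted p under 0.05, 3 were lower, beside 7.46%, and DESeq2 and limma called 0 lower. The median log2 fold change was 0.17, against -0.02 over all regions, and the groups stood apart at 18 regions higher and 5 lower, beside 21.0% and 20.7%. Regions under 1000 bp gave 3 of 29 beside 10.3%, and longer ones 3 of 23 beside 2.35%. Among the short ones, the Jdp2 region of 260 bp passed the low-count filter only through male VAT Treg libraries. No Fosl2, Junb, Jun, Jund, Fos, Fosl1 or Batf region was called here. Without male VAT Treg replicate 1, 1 region was higher beside 1.83% of all regions and 1 was lower beside 1.73%.

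**Figure D1:**
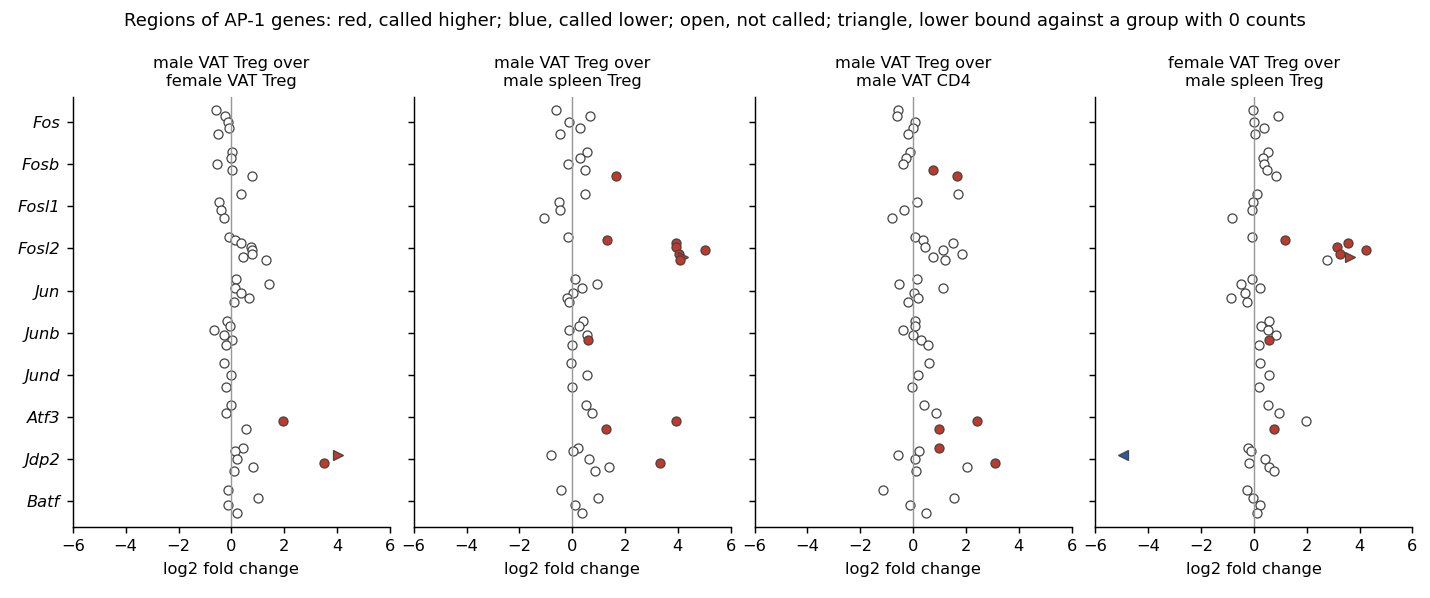
Log2 fold change of each of the 52 regions (points), by gene (down the page) and comparison (panels), with red for called higher, blue for called lower and open for not called; triangles are lower bounds where the other group had 0 counts. Fosl2 carries 7 of the 12 regions higher in male VAT Tregs than in spleen Tregs and 6 of the 8 higher in female VAT Tregs.

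Fosl2 encodes Fra-2, a Fos protein that lacks the strong activation domain of Fos and is known in T cells for its part in the Th17 programme. Its start region, chr5:32132951-32137830, held 107 and 67.0 CPM in male VAT Tregs, 77.5 and 80.9 CPM in female VAT Tregs, 52.0 and 82.5 CPM in VAT CD4 cells, and 33.8 and 36.5 CPM in spleen Tregs. Every fat library, Treg or not, lay above both spleen libraries, while the 3 fat groups overlapped. The region was higher than in spleen by a log2 fold change of 1.31 ± 0.18 (approximate standard error) in male VAT Tregs (edgeR adjusted p = 2.73e-10) and 1.17 ± 0.18 in female VAT Tregs (adjusted p = 1.18e-07). The male call held in each of the 11 alternatives, and the female call was missed by DESeq2 alone (adjusted p = 0.0543). The promoter printed above for Fosl2 lies inside this region.

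Further along the same gene, 6 regions of 82 to 188 bp lay within 4608 bp, 3 in the gene near its end and 3 at 0.426, 0.65 and 1.468 kb beyond it. Together they held 18.1 and 9.17 CPM in male VAT Tregs, 9.38 and 7.63 CPM in female VAT Tregs, 6.16 and 6.78 CPM in VAT CD4 cells, and 0.606 and 0.657 CPM in spleen Tregs. The spleen libraries had 5 and 11 counts over all 6, the fewest of any library, and none of the fat libraries had under 32. All 6 were higher in male VAT Tregs than in spleen Tregs and 5 of 6 in female VAT Tregs. Spleen counts were too low to bring any of the 6 past the low-count filter. Each was kept through fat libraries, so the direction was in part set by the filter. None was called between the sexes or against VAT CD4 cells.

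In male VAT Tregs the log2 fold change over spleen was 3.91 ± 0.76 at chr5:32154802-32154989 (adjusted p = 3.81e-05), 3.91 ± 0.75 at chr5:32155599-32155728 (2.89e-05) and 4.03 ± 0.78 at chr5:32158266-32158399 (2.9e-05). At the other 3 the spleen group had 0 to 3 counts. The 82 bp region chr5:32158490-32158571 had 55 counts in male and 28 in female VAT Tregs, against 0 in spleen Tregs, at least 18.2-fold and 12.6-fold higher against a floor of 3 counts over the spleen group. At chr5:32156409-32156490 male VAT Tregs had 45 counts and spleen Tregs 1, a ratio of scaled counts of 44.7 (exact 95% interval 7.62 to 1804), and at chr5:32159308-32159409 61 counts and 3, a ratio of 20.2 (6.59 to 101). These regions are short and shallow, and intervals and floors cover counting error only.

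Without male VAT Treg replicate 1, calls ended at 3 of these 6 regions, with an adjusted p of 0.108 at 32154802, 0.109 at 32156409 and 0.0628 at 32159308. The call at 32159308 also ended without spleen replicate 2 (0.0508). In female VAT Tregs the log2 fold changes over spleen were 3.56 ± 0.79, 3.16 ± 0.81 and 3.26 ± 0.83 at the regions starting at 32154802, 32155599 and 32158266, and the ratio was 24.3 (3.83 to 1011) at 32156409. Of the 5 female calls, that at 32158490 held in every alternative. The female call at 32156409 was lost with the replicate block (0.0686) and in 8 other alternatives, among them DESeq2 (0.285), limma (0.0996), TMM on short regions (0.0904) and no low-count filter (0.0543). DESeq2 also lost those at 32154802 (0.0505), 32155599 (0.0769) and 32158266 (0.104), the last lost with TMM on short regions too (0.0558). Without female replicate 1 the calls at 32154802, 32155599 and 32156409 were lost (adjusted p = 0.498, 0.332 and 0.763), and without female replicate 2 those at 32156409 and 32158266 (0.0786 and 0.337). Without spleen replicate 1 those at 32156409 and 32158266 were lost (0.196 and 0.166), and without spleen replicate 2 those at 32154802, 32155599 and 32156409 (0.0601, 0.275 and 0.189). The eighth Fosl2 region, 30.854 kb upstream, held 9.24 to 12.8 CPM in every library and was not called.

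**Figure D2:**
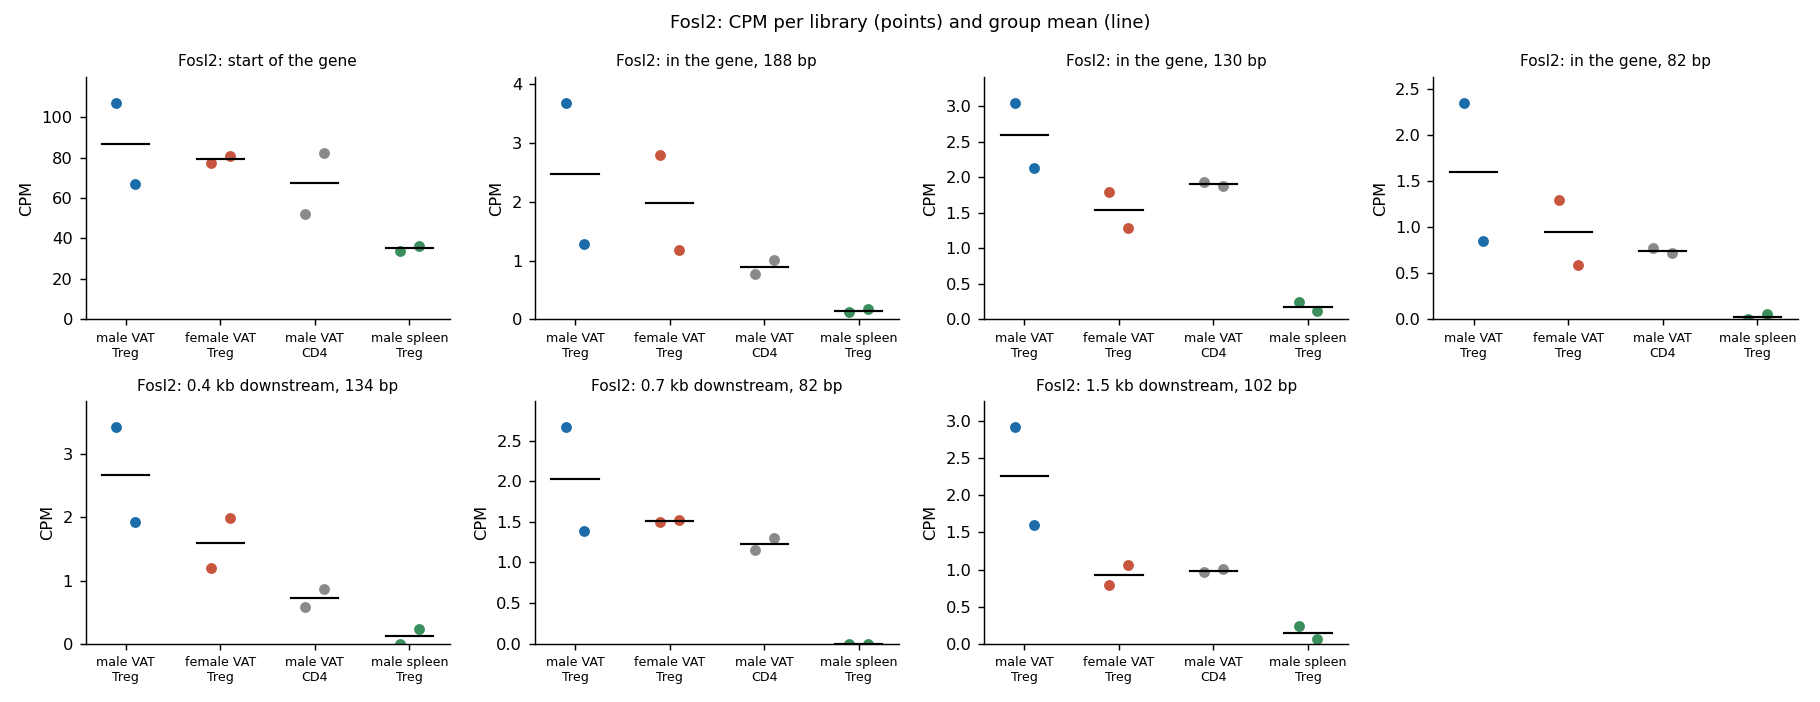
CPM per library (points) and group mean (lines) at the Fosl2 start and at 6 short regions near the end of the gene, for male VAT Tregs, female VAT Tregs, male VAT CD4 cells and male spleen Tregs. At the start the spleen libraries hold 33.8 and 36.5 CPM and every fat library 52.0 or more.

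Fosb encodes a Fos protein that is induced early and decays slowly in shortened form. Its region 15.7 kb upstream, chr7:19325831-19326148, is listed under Ercc1 too and held 9.12 and 3.95 CPM in male VAT Tregs, 4.19 and 3.52 CPM in female VAT Tregs, 1.54 and 2.60 CPM in VAT CD4 cells, and 1.70 and 2.45 CPM in spleen Tregs. Both male VAT libraries were above the CD4 and spleen libraries, and replicate 2 lay among the female ones. The log2 fold change was 1.64 ± 0.37 over spleen Tregs (adjusted p = 0.000529) and 1.65 ± 0.41 over VAT CD4 cells (0.00192). Without male replicate 1 these were 0.88 and 0.89, with adjusted p of 0.301 and 0.42, and without CD4 replicate 1 the second had 0.0809.

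The Fosb region 7.99 kb upstream, chr7:19318109-19322240, held 32.3 and 23.5 CPM in male VAT Tregs against 15.2 and 18.3 CPM in VAT CD4 cells (0.74 ± 0.21, adjusted p = 0.00952). That call was lost without male replicate 1 (0.29), without CD4 replicate 1 (0.193) and with TMM on short regions (0.131). The start of Fosb, chr7:19306393-19310986, went the other way: 36.4 and 25.0 CPM in male VAT Tregs against 44.0 and 47.1 CPM in female VAT Tregs, with a log2 fold change of -0.56 ± 0.18 and an adjusted p of 0.0652, not called. Its adjusted p was 0.046 with TMM on short regions and 0.004 without male replicate 1, where it was called lower.

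Fos and Fosl1, which encode Fos itself and Fra-1, had no called region in any comparison. The Fos start, chr12:85471765-85475486, held 37.0 and 19.5 CPM in male VAT Tregs, 31.1 and 29.3 CPM in female VAT Tregs, 32.5 and 25.1 CPM in VAT CD4 cells, and 21.7 and 25.1 CPM in spleen Tregs. The male VAT libraries were the highest and the lowest of all 8. The highest of the 5 Fos regions lay 16.7 kb upstream, at 30.0 to 48.8 CPM. The 4 Fosl1 regions averaged 1.17 to 13.5 CPM, and their median log2 fold change was -0.33 in male over female VAT Tregs.

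Among the Jun proteins, the obligate partners of Fos proteins, only Junb had a called region. Junb is known to be needed by effector Tregs. Its start region, chr8:84975879-84995090, is 19212 bp long and also covers part of Hook2. It held 240.4 and 152 CPM in male VAT Tregs, 202 and 183 CPM in female VAT Tregs, 148 and 169 CPM in VAT CD4 cells, and 126 and 132 CPM in spleen Tregs. All fat libraries were above both spleen libraries, and male VAT replicate 2 was below both female libraries and 1 of the CD4 libraries. The log2 fold change over spleen was 0.61 ± 0.17 in male VAT Tregs (adjusted p = 0.00805) and 0.58 ± 0.17 in female VAT Tregs (0.0409). The male call was lost without male replicate 1 (0.482), spleen replicate 1 (0.168) or spleen replicate 2 (0.0922) and with TMM on short regions (0.194). The female call was lost in 8 of 11 alternatives, among them each left-out library (adjusted p = 0.193 to 0.693) and the replicate block (0.115).

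Jun was even across the groups. Its start region, chr4:95048397-95056174, held 144 and 123 CPM in male VAT Tregs, 118 and 118 CPM in female VAT Tregs, 119 and 121 CPM in VAT CD4 cells, and 120.1 and 129 CPM in spleen Tregs. Only male VAT replicate 1 lay outside a range of 118 to 129 CPM. The other 5 Jun regions lay 15.9 to 106.9 kb upstream at mean levels of 2.01 to 44.2 CPM, and none was called. Jund, which is expressed more constantly than other Jun genes, held 92.5 and 48.7 CPM in male VAT Tregs, 83.7 and 78.7 CPM in female VAT Tregs, 68.8 and 77.2 CPM in VAT CD4 cells and 65.1 and 76.1 CPM in spleen Tregs at its start. The male VAT libraries were again the highest and the lowest. None of the 3 Jund regions was called.

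Atf3, a stress-induced factor that often represses AP-1 targets, was called at 2 regions upstream of the gene. The longer one, 8.48 kb upstream at chr1:191191810-191195915, held 69.3 and 54.0 CPM in male VAT Tregs, 41.8 and 43.1 CPM in female VAT Tregs, 30.0 and 32.3 CPM in VAT CD4 cells, and 25.1 and 25.4 CPM in spleen Tregs. The 4 groups did not overlap, in that order. Male VAT Tregs were higher than spleen Tregs (1.29 ± 0.18, adjusted p = 1.56e-09) and VAT CD4 cells (0.99 ± 0.19, 1.69e-05), and both calls held in all 11 alternatives. Against female VAT Tregs the log2 fold change was 0.54 ± 0.18 with an adjusted p of 0.0642, not called. Female VAT Tregs were higher than spleen Tregs by 0.75 ± 0.18 (0.00753), a call lost when any single library of these groups was left out (0.145 to 0.187) and with TMM on short regions (0.0735).

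The shorter region, 290 bp at chr1:191189963-191190252 and 6.63 kb upstream, held 5.58 and 3.52 CPM in male VAT Tregs, 1.50 and 0.821 CPM in female VAT Tregs, 1.54 and 0.288 CPM in VAT CD4 cells, and 0.485 and 0.179 CPM in spleen Tregs. Both male VAT libraries were above the other 6. The log2 fold change was 1.96 ± 0.52 over female VAT Tregs (adjusted p = 0.0108), 3.94 ± 0.62 over spleen Tregs (1.16e-07) and 2.43 ± 0.59 over VAT CD4 cells (0.00181). The spleen call held in all 11 alternatives. The female call was lost without male replicate 1 (0.355), female replicate 1 (0.0822) or female replicate 2 (0.33), and in DESeq2 (0.153), limma (0.188) and TMM on short regions (0.0568). The CD4 call was lost without male replicate 1 (0.219) or CD4 replicate 2 (0.203). The Atf3 start, whose promoter is printed above, held 29.4 and 21.1 CPM in male VAT Tregs against 21.9 and 29.0 CPM in female VAT Tregs, and it was called in no comparison.

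**Figure D3:**
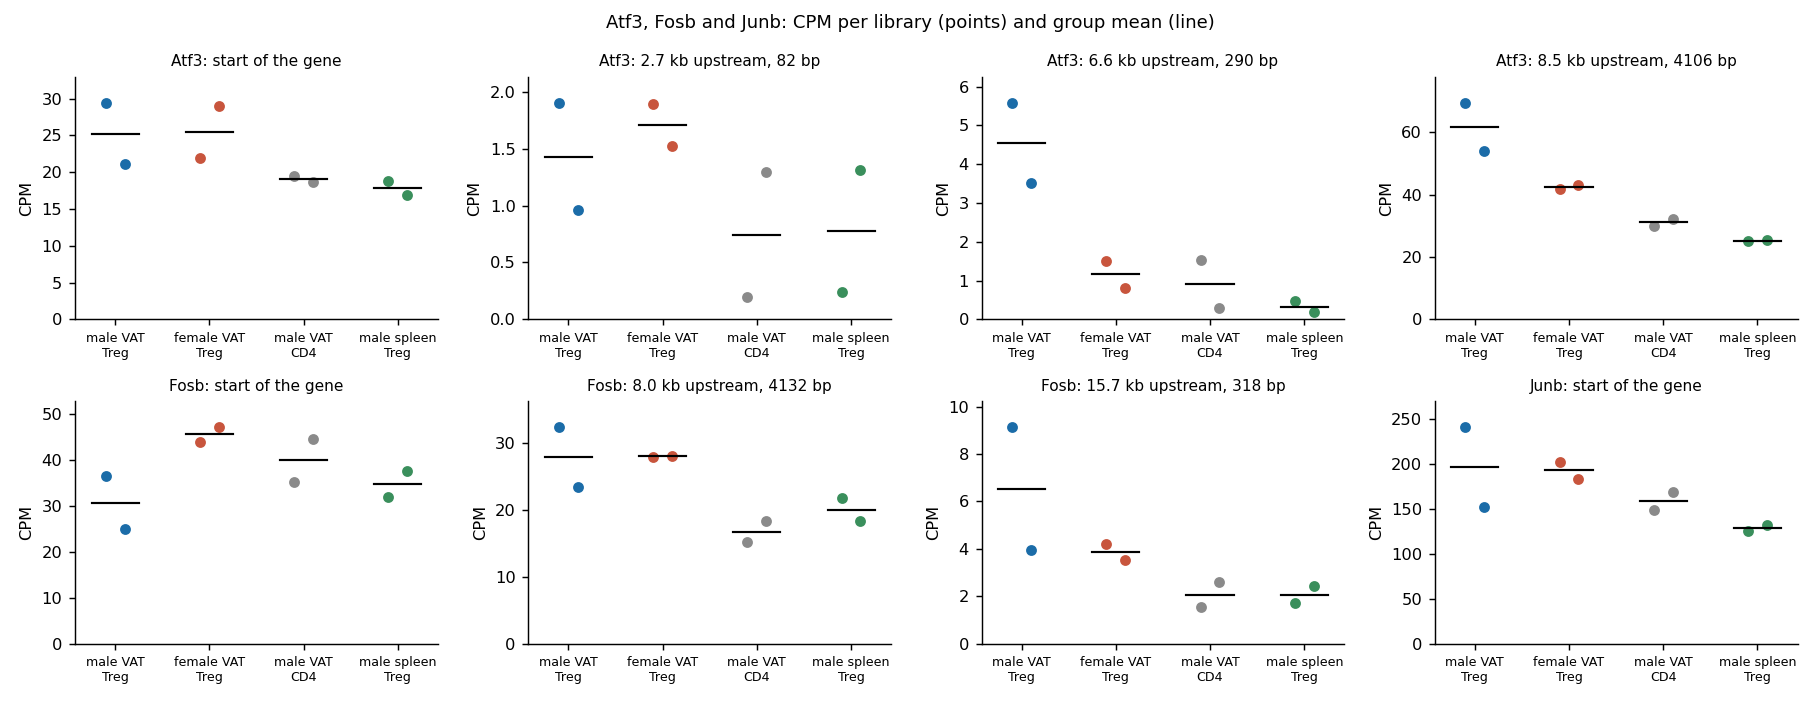
CPM per library (points) and group mean (lines) at the 4 Atf3 regions, 3 Fosb regions and the Junb start, for male VAT Tregs, female VAT Tregs, male VAT CD4 cells and male spleen Tregs. At the Atf3 region 8.48 kb upstream the 4 groups do not overlap, with male VAT Tregs highest at 69.3 and 54.0 CPM and spleen Tregs lowest at 25.1 and 25.4 CPM.

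Jdp2 encodes a repressor that pairs with Jun proteins, and its 2 regions called between the sexes differed more than any other of the 52. At the 80 bp region chr12:85618245-85618324, inside the gene, male VAT Tregs held 1.84 and 3.95 CPM, female VAT Tregs 0 and 0, VAT CD4 cells 5.01 and 3.32, and spleen Tregs 3.88 and 5.67. All 6 male libraries had reads and neither female library did. Male VAT Tregs had 66 counts against 0 in female VAT Tregs, at least 16.2-fold higher (adjusted p = 4.86e-09). Female VAT Tregs were at least 31.4-fold lower than spleen Tregs, with 0 counts against 127 (4.71e-13). Both calls held in all 11 alternatives, while male VAT Tregs and spleen Tregs were not called apart (-0.80 ± 0.39, adjusted p = 0.245).

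Over the 8 libraries, the regions of other genes most like it were 2 on chromosome Y and 1 at Slc10a2 on chromosome 8. Likeness was Pearson's r of log2(CPM + 0.5), 0.99, 0.98 and 0.98, given as a description over libraries that share depth and sex. The first, chrY:256734-264553, held 126 and 309 CPM in male VAT Tregs, 2.19 and 1.17 CPM in female VAT Tregs, 403 and 350 CPM in VAT CD4 cells, and 411 and 377 CPM in spleen Tregs. Uty, a Y-linked gene, held 15.3 and 15.0 CPM in male VAT Tregs, with 0 counts in both female libraries. Not every chromosome Y region was empty in females. Summed over the 27 kept, the female libraries held 272 and 281 CPM and the male libraries 541 to 1175 CPM. Whether reads of the Jdp2 region could also match chromosome Y was not tested.

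The 260 bp region chr12:85632382-85632641, also in Jdp2, held 8.30 and 2.77 CPM in male VAT Tregs, 0.598 and 0.352 CPM in female VAT Tregs, 0.578 and 0.721 CPM in VAT CD4 cells, and 0.485 and 0.597 CPM in spleen Tregs. Both male VAT libraries stood above the other 6, replicate 1 far more so. Only the male VAT libraries were high enough to bring this region past the low-count filter, so its direction was in part set by the filter. The log2 fold change was 3.52 ± 0.57 over female VAT Tregs (adjusted p = 5.01e-07), 3.33 ± 0.53 over spleen Tregs (1.47e-07) and 3.09 ± 0.59 over VAT CD4 cells (2.06e-05). Without male replicate 1 these were 2.49, 2.30 and 2.06, with adjusted p of 0.146, 0.13 and 0.274.

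The Jdp2 region 4.09 kb upstream, chr12:85591733-85594566, held 14.1 and 8.32 CPM in male VAT Tregs against 6.36 and 5.19 CPM in VAT CD4 cells (1.00 ± 0.28, adjusted p = 0.00787). Without male replicate 1 its adjusted p was 0.471, without CD4 replicate 2 0.158, with DESeq2 0.084 and with TMM on short regions 0.132. The Jdp2 start held 6.16 to 9.82 CPM in all libraries, and the groups overlapped. The 3 members that failed the low-count filter were 2 short Jdp2 regions and 1 of Batf. The Jdp2 region chr12:85629846-85629927 had 26 and 2 counts in male VAT Tregs, against 0 and 1 in female VAT Tregs, a ratio of 20.6 (exact 95% interval 3.41 to 844), nearly all from male replicate 1. VAT CD4 cells had 6 and 7 counts there and spleen Tregs 3 and 7. The Jdp2 region starting at 85641013 had 44 and 10 counts in male VAT Tregs, against 6 and 6 in female VAT Tregs, 2 and 4 in VAT CD4 cells and 3 and 10 in spleen Tregs. The Batf region starting at 85670199 had 26 and 5 counts in male VAT Tregs, against 1 and 1 in VAT CD4 cells, a ratio of 7.47 (1.90 to 64.4). Female VAT Tregs had 10 and 4 counts at this Batf region and spleen Tregs 7 and 16. At the regions starting at 85641013 and 85670199, most male VAT counts again came from replicate 1.

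**Figure D4:**
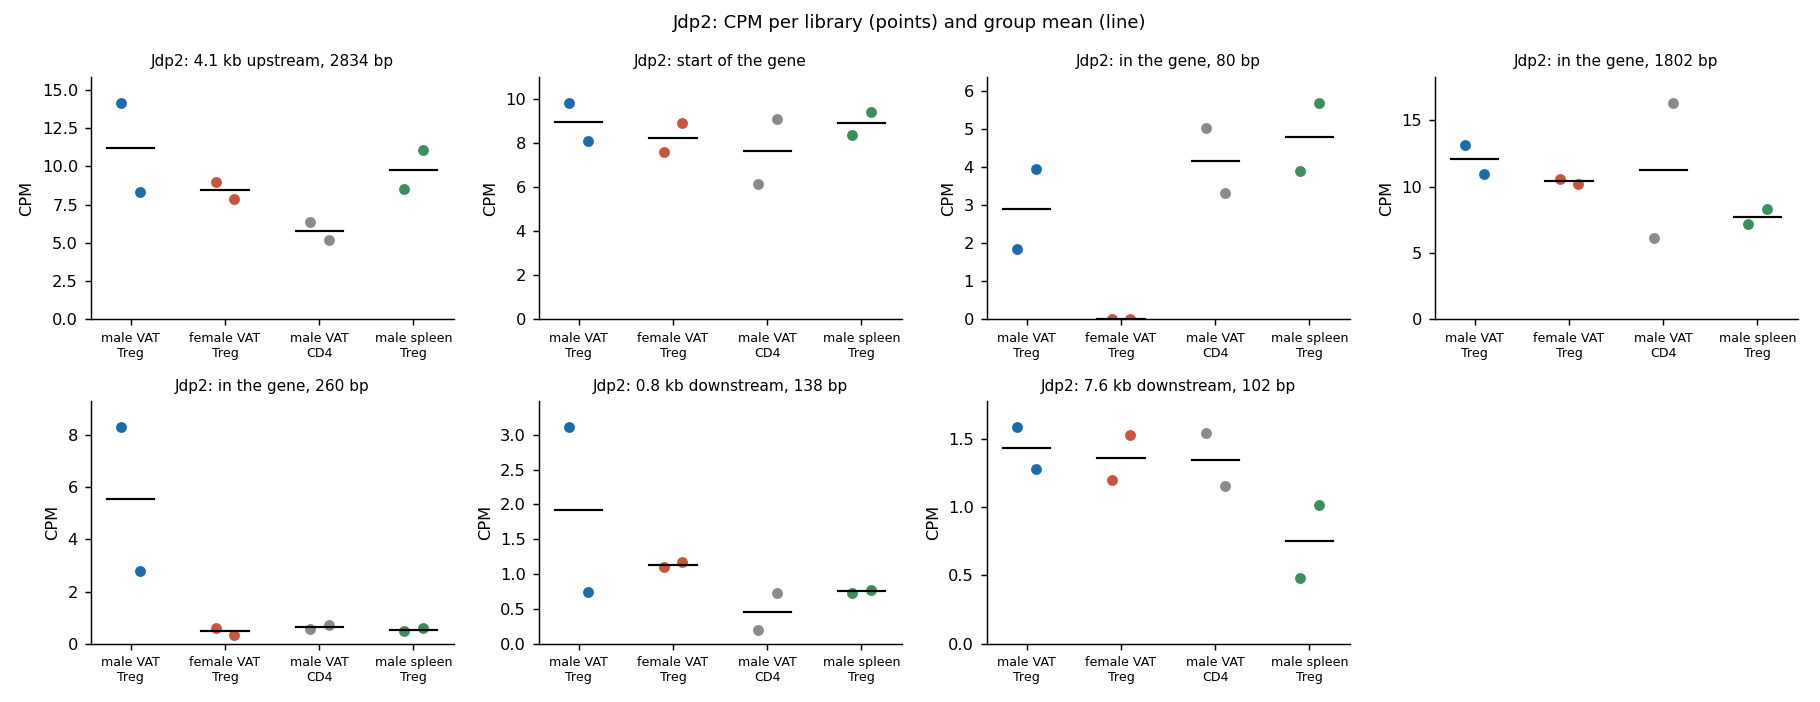
CPM per library (points) and group mean (lines) at the 7 Jdp2 regions that passed the low-count filter, for male VAT Tregs, female VAT Tregs, male VAT CD4 cells and male spleen Tregs. The 80 bp region has 0 in both female libraries, and the 260 bp region is highest in the male VAT libraries at 8.30 and 2.77 CPM.

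Batf, which opens chromatin with Irf4 in T cells and is known for its need in tissue Tregs, had no called region. Its start held 25.2 and 17.3 CPM in male VAT Tregs, 22.2 and 24.9 CPM in female VAT Tregs, 20.2 and 26.1 CPM in VAT CD4 cells, and 22.3 and 17.9 CPM in spleen Tregs. The groups overlapped. Its highest region, in the gene at chr12:85703558-85707514, held 37.5 and 21.5 CPM in male VAT Tregs against 25.2 and 21.8 CPM in spleen Tregs, which also overlapped.

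Fos, Jdp2 and Batf lie side by side on chromosome 12. The 19 regions from chr12:85443596 to 85707514 all belong to these 3 genes, span 263.918 kb, and 16 passed the filter. Along this stretch male VAT Tregs were called apart from female VAT Tregs at the 80 bp and 260 bp regions of Jdp2, and from spleen Tregs at the 260 bp region.

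**Figure D5:**
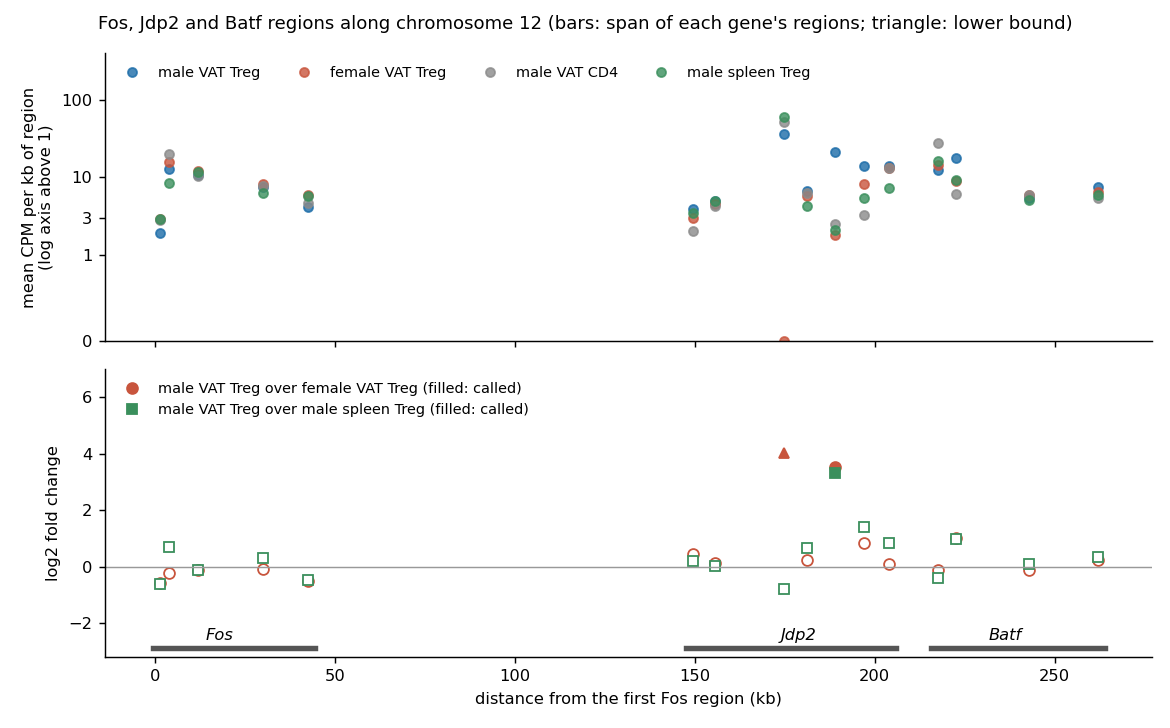
Mean CPM per kb of each group (top, log axis above 1) and log2 fold change of male VAT Tregs over female VAT Tregs and over male spleen Tregs (bottom; filled when called, triangle for a lower bound) against distance from the first Fos region, with bars for the span of each gene's regions. The filled marks are all in Jdp2, and the Fos and Batf marks are open.

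The regions most like the Fosl2 start and the longer upstream Atf3 region over the 8 libraries were found in the same way. For Fosl2 they were at Tnfaip3, the gene of A20, which restrains NF-kB signalling (r = 0.99), at A130040M12Rik and Dhx40 (0.99) and at Ptp4a2 (0.98). The Tnfaip3 region, chr10:19060610-19064261, held 133 and 91.8 CPM in male VAT Tregs, 98.9 and 101 CPM in female VAT Tregs, 77.8 and 114 CPM in VAT CD4 cells, and 43.3 and 46.4 CPM in spleen Tregs. As at Fosl2, all fat libraries were above both spleen libraries. For Atf3 they were at Rgs2, a regulator of G protein signalling (0.998), at another Tnfaip3 region (0.99) and at Nfil3, a bZIP repressor (0.99). The Rgs2 region, chr1:144075883-144076492, held 49.2 and 26.8 CPM in male VAT Tregs, 13.0 and 13.3 CPM in female VAT Tregs, 5.39 and 5.63 CPM in VAT CD4 cells, and 3.27 and 2.81 CPM in spleen Tregs. These correlations carry no p.

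Around AP-1 in the pathway stand the MAP kinases that activate it, the phosphatases that switch those kinases off, and the factors that share its DNA sites. Of 69 regions of 15 MAP kinase genes, male VAT Tregs had 0 higher and 0 lower against female VAT Tregs, 2 and 2 against spleen Tregs, 3 and 1 against VAT CD4 cells, and 0 and 0 in female VAT Tregs against spleen Tregs. Of 49 regions of 9 MAP kinase phosphatase genes, the counts were 2 and 0, 10 and 2, 9 and 1, and 2 and 0 in the same 4 comparisons. Of 37 regions of the DNA partners Irf4, Irf8, Nfatc1, Nfatc2 and Nfatc3, they were 1 and 0, 3 and 1, 5 and 0, and 0 and 1. Over all regions, 2.04% were higher and 1.21% lower in male over female VAT Tregs, 4.64% and 2.09% over spleen Tregs, 5.18% and 2.51% over VAT CD4 cells, and 1.18% and 0.197% in female VAT over spleen Tregs. The MAP kinase counts are near or below these shares, and the phosphatase counts against spleen Tregs and VAT CD4 cells are above them on the higher side. The phosphatase counts were not split by region width or recounted without male VAT Treg replicate 1. The median log2 fold changes of the phosphatase regions were 0.11, 0.10, 0.20 and -0.03 in the 4 comparisons.

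Dusp10, a phosphatase of the JNK and p38 kinases, had regions called in both directions against spleen Tregs. Its region 46.2 kb from the gene, chr1:183987658-183988137, held 37.1 and 20.8 CPM in male VAT Tregs, 13.5 and 12.4 CPM in female VAT Tregs, and 6.43 and 4.30 CPM in spleen Tregs, with no overlap. Male VAT Tregs were higher than spleen Tregs by 2.50 ± 0.23 (adjusted p = 3.06e-21), in all 11 alternatives, and higher than female VAT Tregs by 1.17 ± 0.21 (1.09e-05; 0.115 without male replicate 1). Female VAT Tregs were higher than spleen Tregs by 1.32 ± 0.24 (3.04e-05; 0.112 without spleen replicate 2). Dusp4, a nuclear phosphatase of ERK, held 23.7 and 22.2 CPM in male VAT Tregs against 10.8 and 10.7 CPM in VAT CD4 cells at a region 50.1 kb away (1.10 ± 0.23, 9.98e-05, in all 11 alternatives). A Dusp16 region held 22.7 and 14.9 CPM in male VAT Tregs against 9.82 and 8.30 CPM in spleen Tregs. In VAT CD4 cells it held 4.62 and 11.1 CPM. A Dusp5 region held 10.1 and 5.225 CPM in male VAT Tregs against 2.79 and 2.45 CPM in spleen Tregs. In VAT CD4 cells it held 3.08 and 2.16 CPM. The Dusp16 and Dusp5 regions were called higher than in both other groups, and each of these calls was lost without male VAT Treg replicate 1. Irf8, an interferon regulatory factor that can bind with Batf, held 19.3 and 13.3 CPM in male VAT Tregs against 6.48 and 6.22 CPM in female VAT Tregs at chr8:120714047-120716844, 19.5 kb from the gene (1.37 ± 0.24, 6.59e-06, in all 11 alternatives). At the same Irf8 region female VAT Tregs were below spleen Tregs, at 10.9 and 12.5 CPM (-0.89 ± 0.25, 0.0289). That call was lost when any single library was left out, in DESeq2, in limma and with TMM on short regions.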

How the data were processed

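ATAC-seq was measured in 8 libraries of pooled mouse T cells. The authors deposited raw counts per region, with no normalisation, and per library log2 CPM values that served 1 alternative; the build is GRCm38 (mm10), and featureCounts, HOMER 4.9, limma and Subread 1.6.2 are listed, with no roles, per the submitters' processing notes. How regions were called is not given in the sources used here, nor whether starts count from 0 or 1. The 62205 entries were reduced to 46624 distinct regions; the mitochondrial region (22.6 to 34.1% of counts) and 111 regions on unplaced sequence without a gene (0.880 to 2.11%) were left out. A quasi-likelihood model over the 8 libraries was fitted with edgeR 4.0.16 in R 4.3.3 (TMM, filterByExpr, 1 coefficient per group, 4 residual degrees of freedom, Benjamini-Hochberg over 45709 regions). The threshold for a call was an adjusted p of 0.05, and ± after a log2 fold change is its size over the root of F, an approximate standard error. Tested on simulated counts for male over female VAT Tregs, with 198 of 45183 regions changed, the fit recovered 83.8% of those changed by 2 on the log2 scale and 97.0% of those changed by 3, with 8 false calls. Changes were placed only in regions above 1 CPM, and the same spread was set for all regions and libraries. Recovery of smaller changes and of shallower regions was not simulated. Alternatives were DESeq2 1.42.0, limma 3.58.1 on the deposited log2 values, other scalings, no filter, the 4 libraries compared alone, the replicate block and each library left out. Same-numbered libraries did not deviate together (r = -0.171 to 0.08), so replicate numbers were not taken to pair them. No batch is labelled. Distances to genes and promoters use RefSeq tables of GRCm38.p6.

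The 10 genes, the related lists and the markers were chosen with earlier results of these data known. Regions named are, per gene, that with the highest mean CPM, up to 4 called per comparison with the smallest adjusted p (for Fosl2, all called), every region of the chromosome 12 stretch, up to 3 called per related list and comparison, and the 3 most like each of 3 leading regions; others were named after their values were seen.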

Additional observations from a re-analysis of the deposited data

How the results depend on the processing

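Of 30 calls of a region in a comparison, 10 kept direction and call in every alternative, and no fold change turned sign. DESeq2 size factors kept all 30, no low-count filter 29, the 4 libraries compared alone 29 (of 29 testable), limma on the deposited values 27, DESeq2's Wald test 22 and TMM on regions under 1000 bp 22. With the replicate block 28 of 30 held, giving 3, 12, 6 and 6 regions higher (male over female VAT Tregs, male VAT over spleen Tregs, male VAT Tregs over CD4 cells, female VAT over spleen Tregs) and 0, 0, 0 and 1 lower; same numbers gave no sign of pairing. Leaving out 1 library gave 1 to 5 regions higher and 0 to 2 lower for male over female VAT Tregs (3 and 0 with all), 6 to 17 and 0 to 1 for male VAT over spleen Tregs (12 and 0), 1 to 12 and 0 to 1 for male VAT Tregs over CD4 cells (6 and 0), and 3 to 4 higher for female VAT over spleen Tregs (8). For the first 3, the fewest regions higher came without male VAT Treg replicate 1, which ended 13 calls and kept 8, and the most without replicate 2, which ended 0; the cause was not tested. TMM on short regions gave 1 lower region for male over female VAT Tregs (the Fosb start), 2 lower against CD4 cells and 4 higher for female VAT over spleen Tregs, where DESeq2 gave 2. That scaling shifts the median of all regions by -0.10, -0.17, -0.23 and -0.07 in the 4 comparisons. Member levels moved by at most 0.675% under DESeq2 size factors (median 4.11 CPM in both).

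There are 2 pools per group, and the male VAT Treg pools differ from each other at many member regions. Regions under 1000 bp at 1 or 2 CPM rest on few reads, and some passed the low-count filter only through the groups where they were higher.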

Other observations

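Other genes induced within minutes of stimulation were compared over 75 regions of 14 genes. In male against female VAT Tregs 2 were higher and 2 lower, against spleen Tregs 4 and 3, against VAT CD4 cells 2 and 1, and in female VAT Tregs against spleen Tregs 1 and 0. Over all regions the shares were 2.04% and 1.21%, 4.64% and 2.09%, 5.18% and 2.51%, and 1.18% and 0.197%, so these counts are near the background. Nr4a1, a nuclear receptor induced by T cell receptor signals, held 42.6 and 24.2 CPM in male VAT Tregs against 15.8 and 17.3 CPM in spleen Tregs at chr15:101254731-101262440 (1.02 ± 0.20, edgeR adjusted p = 2.42e-05; 0.134 without male replicate 1). Klf6, a zinc finger factor, held 7.03 and 3.63 CPM in male VAT Tregs against 1.50 and 1.41 CPM in female VAT Tregs at a region 38.0 kb from the gene (1.89 ± 0.46, 0.00359), a call lost without male replicate 1 (0.353), female replicate 1 (0.122) or female replicate 2 (0.125), in DESeq2 (0.0931) and in limma (0.0748). A region listed under the heat shock gene Hspa1a, 8.62 kb from it, held 7.35 and 5.76 CPM in male VAT Tregs against 13.6 and 14.7 CPM in female VAT Tregs (-1.09 ± 0.24, 0.00114; 0.0626 without female replicate 2). At Hspa1b the values were 12.4 and 7.46 CPM in male VAT Tregs against 16.1 and 20.2 CPM in female VAT Tregs (-0.84 ± 0.22, 0.0103; 0.363 without female replicate 2, 0.248 without male replicate 2 and 0.18 in DESeq2). The same Hspa1b region was also lower than in male VAT CD4 cells, at 13.9 and 18.3 CPM (-0.68 ± 0.23, 0.0449), a call lost without CD4 replicate 2 (0.469) or male VAT Treg replicate 2 (0.382), with the replicate block (0.0914), with the 4 libraries alone (0.114) and in DESeq2 (0.265). Hspa1a and Hspa1b are near-identical copies, so reads of the Hspa1b region, which overlaps its gene, may be split between them. The region listed under Hspa1a lies outside that gene.

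Of 58 regions of 16 other bZIP genes, male VAT Tregs had 0 higher and 0 lower against female VAT Tregs, 4 and 2 against spleen Tregs, 3 and 2 against VAT CD4 cells, and 0 and 0 in female VAT Tregs against spleen Tregs (edgeR), near the shares of all regions given above. At Bach2, a repressor that competes for AP-1 sites, a region in the gene held 1.77 and 2.56 CPM in male VAT Tregs against 4.43 and 6.35 CPM in VAT CD4 cells (-1.36 ± 0.41, adjusted p = 0.0172). That call was lost without male replicate 1 or CD4 replicate 2 and in DESeq2. Another Bach2 region, 0.49 kb from the gene, was higher in male VAT Tregs, at 37.1 and 31.8 CPM against 22.9 and 18.7 CPM in spleen Tregs (0.74 ± 0.19, 0.00411). That call was lost without male replicate 1 or spleen replicate 2 and with TMM on short regions. The same region was also higher than in VAT CD4 cells, at 22.3 and 21.9 CPM (0.64 ± 0.20, 0.0222). This second call was lost without male replicate 1 or either CD4 library, with TMM on short regions and with the 4 libraries alone. Of 10 regions of Srf, Elk1, Elk3 and Elk4, which drive Fos transcription, 1 of Elk1 was higher in female VAT Tregs than in spleen Tregs, beside 1.18% of all regions (0.85 ± 0.22, adjusted p = 0.0114). It lies on chromosome X, 9.99 kb from the gene, and the spleen libraries are male, so sex and tissue cannot be told apart. That call was lost without female replicate 2 (0.487), spleen replicate 1 (0.128) or spleen replicate 2 (0.214), with TMM on short regions (0.167) and in DESeq2 (0.0609).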
